A study of Mus musculus with 79 samples.

Results

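The genes described here are those of the endogenous opioid system that encode its peptides and its receptors: the precursors Penk, Pdyn and Pnoc, and the receptors Oprm1, Oprd1, Oprk1 and Oprl1. They were chosen by symbol, and all 7 were found among the 25899 gene symbols of the deposited expression table. The 3 peptide genes were set against the 4 receptor genes across groups of mouse neurons defined by dopamine receptor and brain region.

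Opioid peptides are cut from larger precursor proteins at pairs of basic amino acids and are released from dense-core vesicles. Penk encodes proenkephalin, the source of Met-enkephalin and Leu-enkephalin; Pdyn encodes prodynorphin, the source of the dynorphins; Pnoc encodes prepronociceptin, the source of nociceptin. The receptors are coupled to inhibitory G proteins: Oprm1 encodes the mu receptor, the main target of morphine, Oprd1 the delta receptor, for which enkephalins have high affinity, Oprk1 the kappa receptor, the main target of dynorphins, and Oprl1 the nociceptin receptor. In the striatum, enkephalin is a classical product of projection neurons with D2 receptors and dynorphin of those with D1 receptors.

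The precursors share the feature that gives the peptides their action, a short core (tyrosine or, in nociceptin, phenylalanine, then glycine, glycine and phenylalanine) set behind a basic pair. The stretches below come from the GRCm38 transcripts of GENCODE M21, are printed along the coding strand and show this core, so that the number and kind of peptides behind each mRNA level can be seen. Each stretch is 27 bases long, and the 15 capitals mark the codons of the core and of the residue after it. Counted in the annotated coding sequence, Penk (804 bases) holds 7 such cores, of which 6 are followed by methionine and 1 by leucine. Pdyn (744 bases) holds 3, all followed by leucine, and Pnoc (636 bases) holds 1, followed by threonine. All 11 have a basic pair before them. The Penk copies shown lie at chr4:4134328-4134354, chr4:4133935-4133961 and chr4:4133842-4133868, all in exon 2 of the transcript used, on the minus strand.
Penk copy 1 (methionine): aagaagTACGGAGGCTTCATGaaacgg
Penk copy 6 (leucine): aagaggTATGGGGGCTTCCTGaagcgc
Penk copy 7 (methionine, no basic pair after it): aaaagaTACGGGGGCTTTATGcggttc
The 3 Pdyn copies lie in exon 4 at chr2:129688232-129688258, chr2:129688124-129688150 and chr2:129688067-129688093, also on the minus strand.
Pdyn copy 1: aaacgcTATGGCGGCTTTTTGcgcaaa
Pdyn copy 2: aaacgcTATGGGGGCTTCCTGcggcgc
Pdyn copy 3: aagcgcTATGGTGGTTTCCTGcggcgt
The Pnoc copy lies in exon 3 at chr14:65404872-65404898, on the minus strand, and its first codon reads phenylalanine where the others read tyrosine.
Pnoc copy 1: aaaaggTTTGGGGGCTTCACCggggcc

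Ribosome-bound mRNA had been sequenced in 79 libraries from C57BL/6J mice heterozygous for a bacterial artificial chromosome transgene. In every group the transgene drove the ribosomal protein L10a fused to eGFP, from the promoter of Drd1a (D1 libraries) or of Drd2 (D2 libraries), so that tagged ribosomes could be pulled down with an antibody. For dorsal striatum there were 15 D1 and 16 D2 libraries, for ventral striatum (punched from the nucleus accumbens) 15 and 14, and for prefrontal cortex 19, all D1. Each library pooled tissue of 3 mice, of both sexes except that the sex label of 2 cortical pools is incomplete, no treatment is named in the labels, and the age of the mice is not given in the sources used here. Expression is given in CPM, counts of reads that the authors scaled to a common library total. The labels do not tie pools of one region to those of another, so libraries were treated as independent and p-values rest on the spread between them. Numbers in library names hint at a possible pairing between regions, which these p-values leave out.

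Libraries held 7.35 to 30.8 M reads in genes (M, mega; median 17.5 M). Their labels were checked against marker genes: the summed CPM of 4 D1 neuron markers (Drd1a, Tac1, Isl1, Eya1) was 523 to 777 in D1 dorsal and 429 to 610 in D1 ventral libraries, against 18.7 to 94.0 and 27.5 to 73.6 in the D2 libraries of the same regions. The summed CPM of 4 D2 neuron markers (Drd2, Adora2a, Gpr6, Sp9) was 1023 to 1751 in D2 dorsal and 441 to 1310 in D2 ventral libraries, against 8.81 to 29.2 and 21.2 to 36.3 in D1 libraries. In the D1 prefrontal cortex libraries the D1 marker sum was only 27.7 to 116 CPM (median 47.7), reaching into the D2 striatal ranges, so these markers do not bear out the D1 label there; their 4 cortical glutamatergic markers summed to 448 to 772 CPM. Some libraries stood apart. D2 dorsal replicates 1 and 2 had the highest D1 marker sums of their group (94.0 and 78.2 CPM), D1 dorsal replicate 4 had the highest GABA interneuron marker sum of its group (57.7 CPM, the next 39.2), and D2 ventral replicate 2 had 66.4 CPM of cortical glutamatergic markers, the next 17.6. Prefrontal cortex replicate 6 had 330 CPM of striatal projection neuron markers (the next 208, median 62.6) and the highest D1 marker sum of its group. Results that change without them are named below. Library names begin with the letters EM, OdP, BdP or JAG, whose meaning is not stated. EM libraries are in every group (8 to 15), and the 8 other D2 dorsal libraries are all OdP.

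Most of the 7 genes differed in each comparison of 2 groups, and between D1 and D2 libraries the sizes were largest for Penk, Pdyn and Oprd1. A gene was called where limma's adjusted p, over all genes tested in that comparison, was under 0.05, and differences are on the log2(CPM + 0.5) scale. Between D1 and D2 libraries 5 of 6 tested members were called in dorsal striatum, where 25.9% of all genes were, and 6 of 6 in ventral striatum, where 47.7% were. Between dorsal and ventral striatum 5 of 6 were called in D1 libraries (34.6% of all genes) and 6 of 6 in D2 libraries (28.5%). Between prefrontal cortex and D1 dorsal striatum 6 of 7 were called (54.8%), and against D1 ventral striatum also 6 of 7 (62.8%). With shares of all genes this high, the members' counts say little by themselves, and sizes and overlaps are given instead. Pnoc did not pass the filter on low values in the striatal comparisons and was not tested there. It entered the cortical comparisons only through the cortical libraries. Oprd1 passed the filter only through the D2 libraries in the D1 against D2 comparisons and only through the cortical libraries in the cortical ones, and Pdyn only through the D1 libraries in dorsal striatum and the ventral libraries between regions in D2, so their p-values there are given with no filter.

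**Figure D1:**
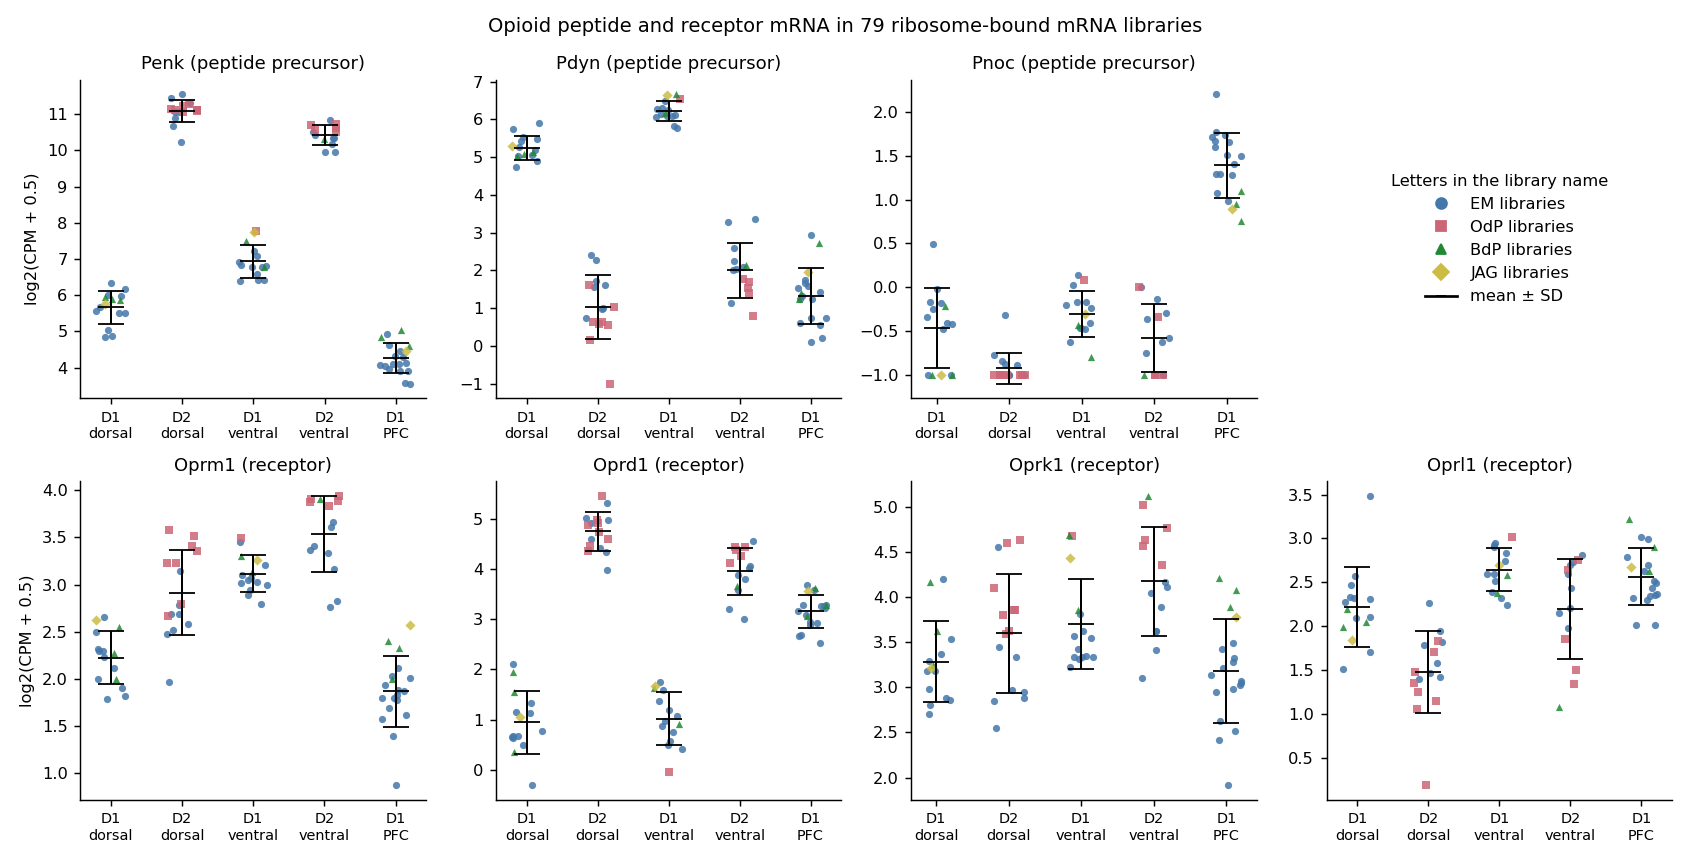
Level of each gene, as log2(CPM + 0.5), in each of the 79 libraries, by group (horizontal axis), with colour and symbol for the letters of the library name and black bars for the mean ± SD. Penk and Oprd1 were highest in the D2 groups, Pdyn in the D1 striatal groups and Pnoc in prefrontal cortex, while Oprm1, Oprk1 and Oprl1 overlapped between most groups; each panel has its own vertical scale.

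Penk was the most abundant of the 7 genes and separated D1 from D2 libraries completely. Its gene lies at chr4:4133531-4138819 (minus strand). Penk CPM in D2 dorsal striatum had a lowest value of 1203, a median of 2201 and a highest value of 2996, against 28.4, 53.2 and 79.7 in D1 dorsal striatum. In ventral striatum it had a lowest value of 984.7, a median of 1413 and a highest value of 1818 in D2 libraries, and of 82.8, 112 and 218 in D1 libraries. No D1 library overlapped the D2 libraries of its region, a separation seen for 1.18% of genes in dorsal and 1.34% in ventral striatum. On the log2 scale D1 minus D2 was -5.42 ± 0.13 (SE) in dorsal striatum (adjusted p = 2.47e-28 by limma), the 5th largest of 11090 genes in size, and -3.49 ± 0.13 in ventral striatum (adjusted p = 1.05e-21).

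Penk differed between the striatal regions in opposite directions in D1 and D2 neurons. In D1 libraries it was 0.415-fold as high in dorsal as in ventral striatum (52.35 ± 14.99 against 127.7 ± 43.6 CPM, SD), and all 15 ventral libraries exceeded all dorsal ones (log2 difference -1.27 ± 0.15, adjusted p = 2.86e-08 by limma), a separation seen for 2.65% of genes. In D2 libraries it was 1.58-fold higher in dorsal striatum (2213 ± 417 against 1397 ± 250 CPM; 0.66 ± 0.11, adjusted p = 2.03e-05), with 14 of 16 dorsal values above all ventral values. Marker genes moved with these differences. All 4 D2 neuron markers were called higher in dorsal than in ventral D2 libraries (median 0.78) and lower in dorsal than in ventral D1 libraries (median -0.92), and the 4 striatal projection neuron markers were called higher in dorsal striatum in both classes (0.81 in D2 and 0.62 in D1). Of the 4 tested GABA interneuron markers, 3 were lower in dorsal D2 libraries (median -0.71), and in D1 libraries 3 were higher and 1 lower (0.72). Of 3 cholinergic interneuron markers, 2 were lower in dorsal D2 libraries (-0.70). The part of these shifts in the regional differences of Penk, and of Oprd1 below, was not tested. The D1 prefrontal cortex libraries were lowest, with a lowest value of 11.3, a median of 17.1 and a highest value of 32.4 CPM. There Penk was lower than in D1 dorsal striatum (-1.40 ± 0.14, adjusted p = 2.04e-11) and than in D1 ventral striatum (-2.67 ± 0.14, adjusted p = 2.28e-20), without overlap in the latter, as for 12.6% of genes. All neighbours in the order D2 dorsal, D2 ventral, D1 ventral, D1 dorsal and prefrontal cortex differed in mean, and the group means spanned 114-fold. Each had p = 1e-05 by a permutation test over libraries, the smallest value possible with 100000 resamples. Ranges still overlapped between the D2 groups, and between D1 dorsal striatum and cortex, where 12 of 15 dorsal libraries exceeded every cortical one. Of the exon bases of Penk, 14.3% are shared with A830012C17Rik on the opposite strand, and the library kit did not mark strand. That gene's median was 5.29 CPM in D2 dorsal striatum and at most 4.63 CPM in the other groups, far under Penk.

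Pdyn showed the reverse separation. It lies at chr2:129686565-129699844 (minus strand). Its CPM in D1 dorsal striatum had a lowest value of 26.4, a median of 35.8 and a highest value of 59.2, and in D1 ventral striatum 54.6, 71.0 and 101.3. In D2 libraries the highest value was 4.84 CPM in dorsal striatum (median 1.48, with replicate 9 at 0 reads) and 9.83 CPM in ventral striatum (median 3.58, lowest 1.24). As for Penk, neither region showed any overlap (1.18% of genes had none in dorsal and 1.34% in ventral striatum). D1 libraries exceeded D2 libraries by 4.22 ± 0.22 on the log2 scale in dorsal striatum (adjusted p = 1.12e-15 by limma with no filter, 8th in size among filtered genes) and 4.22 ± 0.18 in ventral striatum (adjusted p = 8.82e-20, 4th in size). Unlike Penk, Pdyn was lower in dorsal striatum in both classes of neuron: -0.98 ± 0.10 in D1 libraries (adjusted p = 2.35e-09, 13 of 15 ventral libraries above every dorsal one) and -0.98 ± 0.27 in D2 libraries (adjusted p = 0.0134 with no filter, 3 of 14). The highest Pdyn values among D2 dorsal libraries were in replicates 1 and 2, those with the highest D1 marker sums; without them the difference in D2 libraries was -1.17, and with EM libraries alone it was -0.81 and not called (adjusted p = 0.067). Of the 4 D1 neuron markers, 2 were called lower and 0 higher in dorsal than in ventral D2 libraries (median -0.47, all genes -0.12), while 3 were called higher and 0 lower in dorsal D1 libraries (0.34). Their part in the regional difference of Pdyn was not tested.

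In prefrontal cortex Pdyn had a lowest value of 0.581, a median of 2.00 and a highest value of 7.16 CPM, within the range of the D2 striatal libraries. The log2 difference from D1 dorsal striatum was -3.94 ± 0.19 (adjusted p = 8.09e-21 by limma) and that from D1 ventral striatum -4.92 ± 0.19 (adjusted p = 9.72e-25), the 5th largest in size of 11749 genes. All 15 D1 libraries of either striatal region exceeded every cortical one, and groups without overlap were seen for 10.5% of genes against dorsal and 12.6% against ventral striatum. The highest cortical value was that of replicate 6, without which the differences were -4.03 and -5.01. Cell type markers moved with the cortical levels of Pdyn and Penk: all 4 D1 neuron markers (medians -3.96 against dorsal and -3.63 against ventral striatum) and all 4 striatal projection neuron markers (-4.73 and -4.04) were called lower in cortex, and all 4 cortical glutamatergic markers higher (2.85 and 3.43). Their part in these differences was not tested. Prefrontal cortex and D2 dorsal striatum, the lowest groups, were not separated (permutation test over libraries, p = 0.298, one of 70 such pairs of groups compared over the 7 genes).

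The balance of Penk and Pdyn differed by orders of magnitude between D1 and D2 neurons. The ratio of Penk to Pdyn CPM within a library had a median of 1.33 in D1 dorsal striatum (0.886 to 2.19) and 1.61 in D1 ventral striatum (1.12 to 2.34). In D2 libraries the median was 1407 in dorsal striatum (248 to 3466, over the 15 libraries with Pdyn reads) and 347.5 in ventral striatum (126 to 1165). In prefrontal cortex it was 9.63 (2.99 to 41.2). In reads not scaled by exon length, both D1 striatal groups carried the precursors at similar levels, and the D2 groups carried almost only Penk.

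Pnoc was a gene of the cortical libraries. It lies at chr14:65400673-65425472 (minus strand). Its CPM in prefrontal cortex had a lowest value of 1.19, a median of 2.15 and a highest value of 4.09, and no striatal library reached the lowest cortical one: the highest values were 0.912 in D1 dorsal, 0.304 in D2 dorsal, 0.600 in D1 ventral and 0.507 CPM in D2 ventral striatum. No reads were found in 5 of 15 D1 dorsal, 11 of 16 D2 dorsal and 5 of 14 D2 ventral libraries, where 3 reads would be worth at most 0.140 CPM, so at this depth such libraries allow up to that level. Between prefrontal cortex and D1 dorsal striatum 10.5% of genes had no overlap, and against D1 ventral striatum 12.6%. The prefrontal cortex minus D1 dorsal difference of Pnoc was 1.85 ± 0.14 (adjusted p = 1.24e-14 by limma) and that against D1 ventral striatum was 1.69 ± 0.12 (adjusted p = 2.84e-16). These sizes depend on the pseudocount: with 0.1 CPM they were 2.99 and 2.46, and with 1 CPM 1.34 and 1.25. Since Pnoc passed the filter only through the cortical libraries, these tests were bound to find a difference. The 5 GABA interneuron markers Sst, Npy, Vip, Pvalb and Lhx6, genes of inhibitory local neurons, summed to 87.2 to 245 CPM in the cortical libraries and to at most 57.7 CPM in D1 striatal libraries, with all 5 above 0 in every cortical library. Their part in the Pnoc result was not tested. In bulk pull-downs such as these, fewer cells with a transcript and less transcript per cell cannot be told apart.

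Among the receptors, Oprd1 was the one that separated D1 from D2 neurons. It lies at chr4:132110726-132144486 (minus strand). Oprd1 CPM in D2 dorsal striatum had a lowest value of 15.3, a median of 27.6 and a highest value of 43.3, against 0.309, 1.20 and 3.80 in D1 dorsal striatum. In D2 ventral striatum it had a lowest value of 7.49, a median of 16 and a highest value of 23.1, against 0.472, 1.45 and 2.88 in D1 ventral striatum. The groups did not overlap in either region, which held for 1.18% of genes in dorsal and 1.34% in ventral striatum and otherwise, among the members, for Penk and Pdyn. Its D1 minus D2 difference was -3.80 ± 0.18 in dorsal (adjusted p = 6.68e-17 by limma with no filter) and -2.94 ± 0.18 in ventral striatum (adjusted p = 4.07e-13), 12th in size among filtered genes in both. D1 libraries lay near the filter, with 12 of 15 dorsal and 11 of 15 ventral ones at 1 CPM or more.

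Like Penk, Oprd1 was higher in dorsal than in ventral D2 libraries (27.2 ± 7.39 against 15.7 ± 4.80 CPM, SD; difference 0.79 ± 0.15, adjusted p = 9.64e-05 by limma, with 11 of 16 dorsal libraries above every ventral one). In D1 libraries no regional difference was called (1.61 ± 0.96 against 1.65 ± 0.75 CPM; -0.07 ± 0.20, adjusted p = 0.824). Unlike Penk, it was higher in prefrontal cortex than in either D1 striatal group: its cortical CPM ran from 5.30 over a median of 8.85 to 12.3, above every D1 striatal library. The differences were 2.21 ± 0.16 against dorsal (adjusted p = 8.57e-14 by limma with no filter) and 2.14 ± 0.14 against ventral striatum (adjusted p = 5.87e-15). Non-overlapping groups were found for 10.5% and 12.6% of genes in these cortical comparisons.

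Oprm1, the mu receptor gene at chr10:6758506-7038198 (plus strand), was higher in D2 than in D1 neurons and higher in ventral striatum than in dorsal, with log2 sizes under 1 in these comparisons. Its CPM had a lowest value of 6.31, a median of 11.9 and a highest value of 14.8 in D2 ventral striatum, 6.42, 7.90 and 10.8 in D1 ventral striatum, and 3.43, 6.41 and 11.4 in D2 dorsal striatum. It had 2.97, 4.34 and 5.82 in D1 dorsal striatum and 1.33, 3.15 and 5.44 in prefrontal cortex. The D1 minus D2 difference was -0.69 ± 0.14 in dorsal (adjusted p = 0.000241 by limma; 12 of 16 D2 libraries above every D1 library) and -0.42 ± 0.12 in ventral striatum (adjusted p = 0.00465; 8 of 14). With EM libraries alone neither was called: -0.43 with an adjusted p of 0.062 in dorsal and -0.22 with an adjusted p of 0.158 in ventral striatum. The ventral call was also lost with each library's genic share of reads as a term (adjusted p = 0.196 by limma). The dorsal minus ventral difference was -0.89 ± 0.10 in D1 libraries (adjusted p = 2.9e-09), where the groups did not overlap, as for 2.65% of genes. In D2 libraries it was -0.62 ± 0.15 (adjusted p = 0.00227, 8 of 14 ventral libraries above every dorsal one; 1.46% of genes did not overlap). Prefrontal cortex was lower than D1 ventral striatum without overlap, as for 12.6% of genes (-1.25 ± 0.11, adjusted p = 2.29e-13), and lower than D1 dorsal striatum with much overlap (-0.36 ± 0.12, adjusted p = 0.0112). D1 ventral and D2 dorsal striatum, neighbours in the order of levels, were not separated (permutation test, p = 0.122).

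Oprl1, the nociceptin receptor gene at chr2:181715016-181720985 (plus strand), was the receptor whose level was higher in D1 than in D2 neurons. Its CPM had a lowest value of 4.25, a median of 5.55 and a highest value of 7.57 in D1 ventral striatum, 3.53, 5.24 and 8.84 in prefrontal cortex, and 2.35, 4.08 and 10.7 in D1 dorsal striatum. It had 1.63, 4.54 and 6.51 in D2 ventral and 0.644, 2.28 and 4.30 in D2 dorsal striatum. The highest D1 dorsal value was that of replicate 4, with the next at 5.47. The D1 minus D2 difference was 0.74 ± 0.16 in dorsal (adjusted p = 0.000848 by limma; 7 of 15 D1 values above all D2 values) and 0.45 ± 0.16 in ventral striatum (adjusted p = 0.0194; 5 of 15). With EM libraries alone the difference was 0.58 in dorsal (adjusted p = 0.0564) and 0.18 in ventral striatum (adjusted p = 0.278). The ventral call was also lost with each library's genic share of reads as a term (adjusted p = 0.408 by limma). Its dorsal level was below its ventral level in D1 libraries (-0.43 ± 0.13, adjusted p = 0.0106) and in D2 libraries (-0.72 ± 0.19, adjusted p = 0.00323). The D1 call was lost by median-ratio scaling (adjusted p = 0.0663), by edgeR (adjusted p = 0.155) and in EM libraries alone (adjusted p = 0.107), and the D2 call was lost in OdP libraries alone (-0.76, adjusted p = 0.064). In prefrontal cortex it was higher than in D1 dorsal striatum (0.34 ± 0.13, adjusted p = 0.0256; not called by edgeR, adjusted p = 0.155, or in EM libraries, adjusted p = 0.304, or without cortical replicates 1, 2 and 6, those highest in striatal projection neuron markers, adjusted p = 0.0735) and did not differ by the test from D1 ventral striatum (-0.08 ± 0.10, adjusted p = 0.501).

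Oprk1, the kappa receptor gene at chr1:5588466-5606131 (plus strand), had the smallest span of group means, 2.06-fold. Its CPM had a lowest value of 8.09, a median of 17.1 and a highest value of 34.3 in D2 ventral striatum and 8.88, 11.2 and 25.2 in D1 ventral striatum. It had 5.34, 11.7 and 24.3 in D2 dorsal striatum, 6.02, 8.78 and 17.9 in D1 dorsal striatum and 3.27, 8.27 and 18 in prefrontal cortex. All 5 ranges overlapped. Between D1 and D2 libraries it differed by -0.32 ± 0.19 in dorsal striatum (adjusted p = 0.222 by limma, not called) and -0.47 ± 0.19 in ventral striatum (adjusted p = 0.0385). The dorsal minus ventral difference was -0.42 ± 0.16 in D1 libraries (adjusted p = 0.0446) and -0.57 ± 0.21 in D2 libraries (adjusted p = 0.0411). These 3 calls were near the threshold and each was lost under several settings: with no filter on low values the adjusted p was 0.0737, 0.0739 and 0.0757, and in EM libraries alone it was 0.0583, 0.142 and 0.101. Adjusted for each library's genic share of reads, the D1 minus D2 difference in ventral striatum turned to 0.17. Prefrontal cortex was below D1 ventral striatum (-0.52 ± 0.17, adjusted p = 0.00846) and was not separated from D1 dorsal striatum (-0.11 ± 0.17, adjusted p = 0.627).

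**Figure D2:**
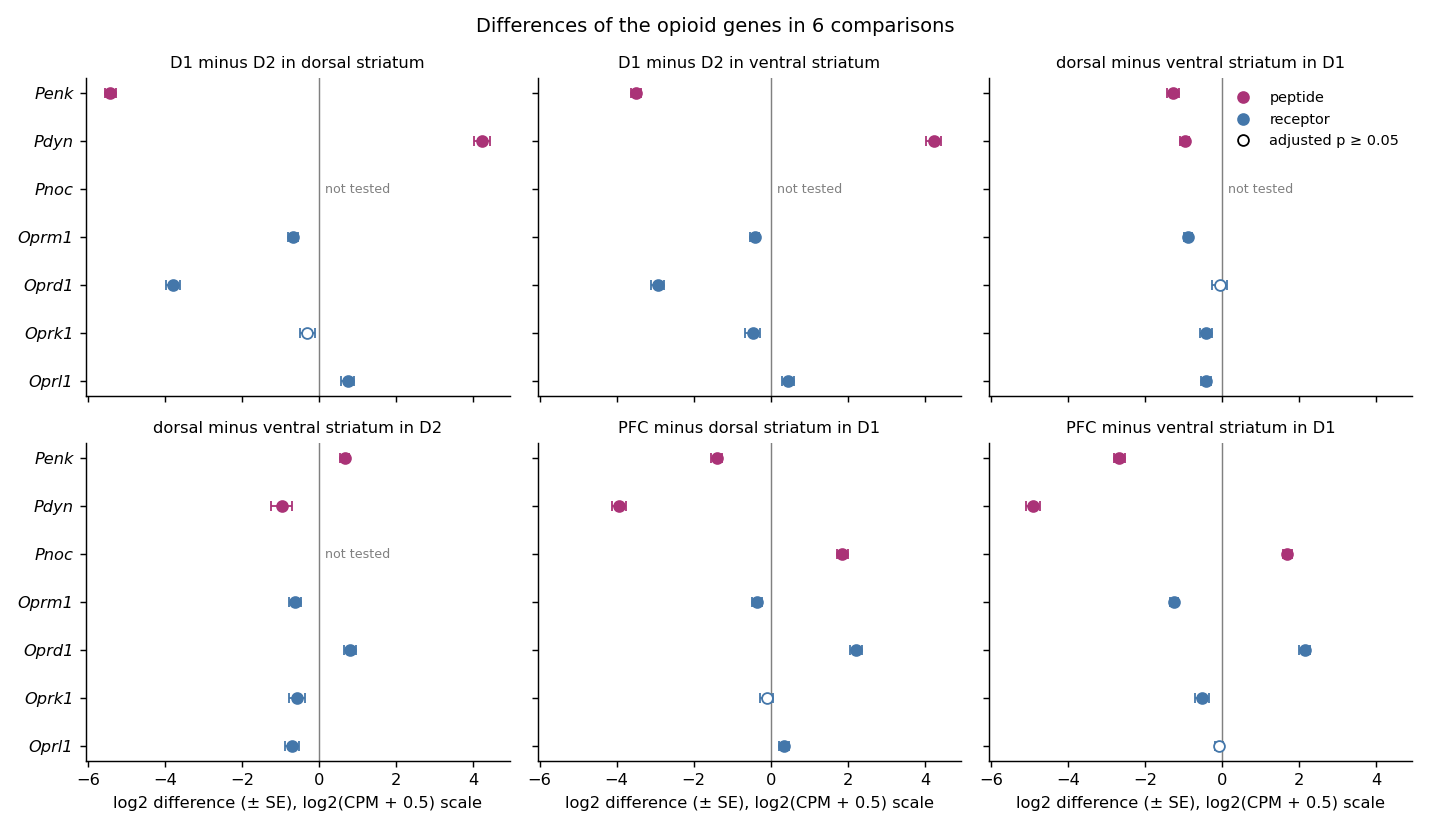
Log2 difference of each gene (horizontal axis, with its standard error) in each of the 6 comparisons of 2 groups, with filled points where limma's adjusted p was under 0.05 and open points otherwise, peptide genes in purple and receptor genes in blue. The largest differences between D1 and D2 libraries were those of Penk, Pdyn and Oprd1, at 2.94 or more in size, while the other receptors stayed within 0.74.

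Set side by side, the tested peptide genes differed between D1 and D2 libraries by 4.22 to 5.42 in dorsal and 3.49 to 4.22 in ventral striatum, in size on the log2 scale. Among the receptor genes the sizes ran from 0.32 to 3.80 in dorsal and from 0.42 to 2.94 in ventral striatum, with medians of 0.71 and 0.46. Over all genes the median size was 0.22 in dorsal and 0.29 in ventral striatum. Between the striatal regions the kinds of gene were more alike: 0.98 to 1.27 for peptides and 0.07 to 0.89 for receptors in D1 libraries, and 0.66 to 0.98 against 0.57 to 0.79 in D2 libraries. The median of all genes lay at -0.12 in both regional comparisons, so regional differences are best read against that value, and it moved to -0.01 in D1 and -0.004 in D2 libraries under median-ratio scaling. Of the receptors, Oprm1, Oprk1 and Oprl1 all had higher means in ventral than in dorsal striatum in both classes of neuron. Under median-ratio scaling Oprk1 was no longer called in D1 (adjusted p = 0.169) or D2 libraries (adjusted p = 0.148), and Oprl1 no longer in D1 libraries (adjusted p = 0.0663).

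Levels were also divided by the merged length of all annotated exons of each gene. This allows only a rough comparison between genes, since the transcript forms present were not determined. On this scale Penk ranked first of the 7 in every group, from 11.9 ± 3.64 CPM per kilobase (SD, n = 19) in prefrontal cortex to 1354 ± 255 (n = 16) in D2 dorsal striatum. Pdyn ranked second in the D1 striatal groups, at 13.3 ± 3.14 CPM per kilobase in dorsal and 26.3 ± 4.95 in ventral striatum. In the D2 groups the second place was that of a receptor, Oprd1, at 6.77 ± 1.84 and 3.92 ± 1.19, and likewise in prefrontal cortex at 2.15 ± 0.51. In D1 dorsal striatum the highest receptor levels were those of Oprl1 (1.18 ± 0.51) and Oprk1 (1.06 ± 0.40), which overlap, and in D1 ventral striatum again Oprl1 (1.56 ± 0.28) and Oprk1 (1.46 ± 0.62). Pnoc was the lowest of the 7 in all 4 striatal groups, at or under 0.151 CPM per kilobase. In prefrontal cortex it lay below Oprl1 at 1.02 ± 0.33, a level that overlapped that of Oprk1 (1.01 ± 0.43).

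Penk separated D1 from D2 libraries by more in dorsal striatum than in ventral. In the interaction contrast over the 4 striatal groups, the difference of differences was -1.93 ± 0.19 for Penk (adjusted p = 1.66e-11 by limma, 7th in size of 11873 genes) and -0.86 ± 0.26 for Oprd1 (adjusted p = 0.0497), so 2 of 6 tested members were called where 2.64% of all genes were. For Pdyn it was -0.003 ± 0.29 (adjusted p = 0.998). It was -0.27 ± 0.18 for Oprm1 (adjusted p = 0.508), 0.16 ± 0.28 for Oprk1 (adjusted p = 0.843) and 0.29 ± 0.23 for Oprl1 (adjusted p = 0.583). The Oprd1 call sat at the threshold and was lost under 8 of the alternative settings, without D2 ventral replicate 2 (adjusted p = 0.0548) and without D1 dorsal replicate 4 (adjusted p = 0.0735) among them. All 4 D2 neuron markers were also called in the same direction, with a median of -1.75. Called in the other direction were 2 of 4 tested GABA interneuron markers (median 0.995) and 1 of 4 D1 neuron markers (0.657). Their part in the contrasts of Penk and Oprd1 was not tested.

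Beside that, the level of Penk in D1 libraries can be set against the level of D2 marker genes there. The mean Penk CPM of D1 libraries was 2.37% of that of D2 libraries in dorsal and 9.14% in ventral striatum, and that of Oprd1 5.91% and 10.5%. For Drd2, the receptor whose promoter defines the D2 libraries, the share was 0.550% and 1.37%; for the adenosine receptor gene Adora2a 1.64% and 6.82%; for the orphan receptor gene Gpr6 2.11% and 13.4%; and for the transcription factor gene Sp9 12.9% and 29.2%. The share of every one of these genes was thus higher in ventral striatum. That of Penk lay above Drd2 and Adora2a and below Sp9 in both regions. It lay just above Gpr6 in dorsal and below Gpr6 in ventral striatum. In the other direction, the mean Pdyn CPM of D2 libraries was 4.85% of that of D1 libraries in dorsal and 5.35% in ventral striatum. That was below Drd1a (6.77% and 10.7%), the substance P precursor gene Tac1 (11.2% and 16.4%) and the transcription factor gene Isl1 (8.38% and 15.2%), and above Eya1 (1.08% and 2.40%). Whether RNA from untagged cells contributes to these values was not tested.

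**Figure D3:**
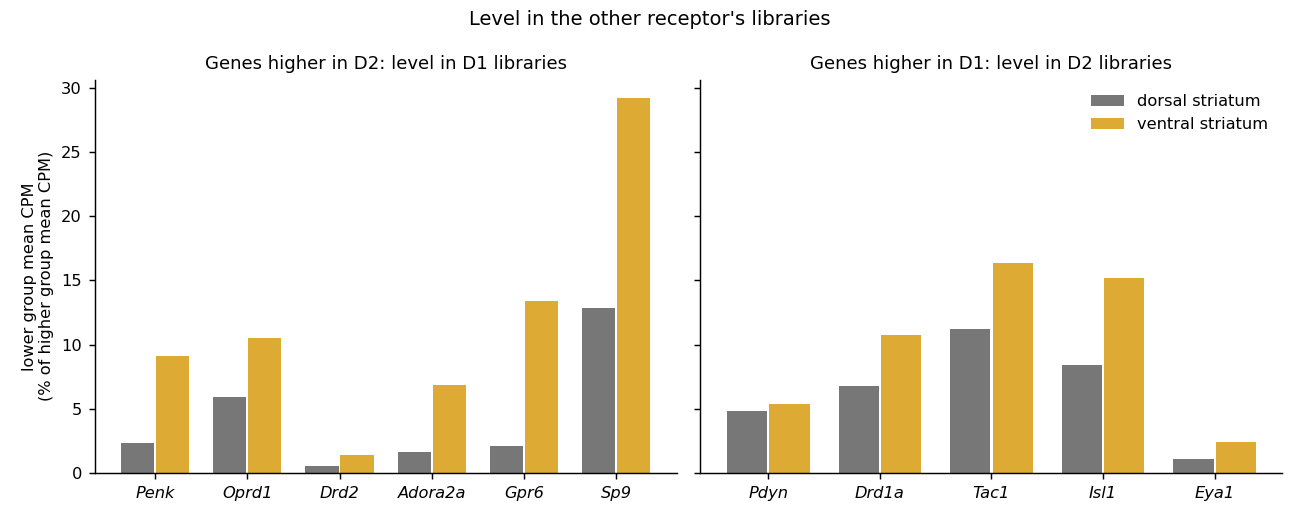
Mean CPM in the group with the lower level as a percentage of the mean CPM in the group with the higher level (vertical axis), for genes higher in D2 libraries (left) and genes higher in D1 libraries (right), in dorsal and ventral striatum. Penk was at 2.37% in dorsal and 9.14% in ventral striatum, and Pdyn at 4.85% and 5.35%; bars are ratios of group means without error.

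Other cell types also differed between the groups. The summed CPM of 4 cortical glutamatergic markers (Slc17a7, Neurod6, Neurod2, Tbr1) was 23.9 to 107.5 in D1 dorsal against 0.928 to 27.9 in D2 dorsal libraries, and 13.7 to 92.1 in D1 ventral against 2.79 to 66.4 in D2 ventral libraries. That of the 3 measured cholinergic interneuron markers (Chat, Slc5a7, Lhx8), genes of the striatal cells that release acetylcholine, was 2.89 to 14.2 in D2 dorsal against 0.365 to 1.59 in D1 dorsal libraries. In ventral striatum it was 6.63 to 15.1 in D2 against 0.559 to 2.69 in D1 libraries. Of the 4 tested GABA interneuron markers, 3 were called higher in D1 than in D2 dorsal libraries (median 1.22) and 1 was called lower in ventral striatum. All 4 astrocyte markers were called higher in prefrontal cortex than in D1 dorsal (median 1.57) and D1 ventral striatum (2.05). The part of these cells in the differences of the opioid genes was not tested. Without D2 ventral replicate 2, the library highest in cortical markers, the ventral D1 against D2 calls of all 6 tested members remained.

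Levels also moved with the letters of the library name, for the kappa and mu receptor genes in several groups. Oprk1 CPM was above every EM library of the same group in all 4 other libraries of D1 ventral striatum (14.0 to 25.2 against 8.88 to 13.5), all 6 of D2 ventral striatum (20.0 to 34.3 against 8.09 to 17.5) and all 4 of prefrontal cortex (13.2 to 18 against 3.27 to 10.8). Such separation was seen for 7.48%, 2.04% and 2.35% of genes in these groups. In dorsal striatum the letters overlapped, with 2 of 8 OdP libraries and 0 of the 4 other D1 libraries above every EM library (4.62% of genes in D1 and 2.26% in D2 libraries were fully separated). Oprm1 CPM was likewise above every EM library in all 6 other D2 ventral libraries (13.8 to 14.8 against 6.31 to 12.2) and in 6 of 8 OdP libraries of D2 dorsal striatum, and in 3 of 4 other libraries of prefrontal cortex. In D1 ventral striatum 3 of the 4 other libraries were also above every EM library in Penk (medians 195.8 against 109.8 CPM) and in Pdyn (96.3 against 69.1 CPM). In the other direction, Oprl1 CPM was below every EM library in 5 of 8 OdP libraries of D2 dorsal and 4 of 6 other libraries of D2 ventral striatum. The same held for Pdyn in 6 of 8 OdP libraries of D2 dorsal striatum and for Pnoc in 3 of 4 other libraries of prefrontal cortex.

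The difference between EM and OdP libraries was tested within the D2 groups. In dorsal striatum 3 of 6 tested members were called, where 30.2% of genes were: Oprk1 (-0.82 ± 0.23, adjusted p = 0.012 by limma) and Oprm1 (-0.61 ± 0.17, adjusted p = 0.0088) were lower in EM libraries and Pdyn (1.01 ± 0.31) higher. Pdyn passed the filter there only through the EM libraries; its adjusted p was 0.0445 with no filter and 0.068 by edgeR. In ventral striatum the same 3 were called, where 22.1% of genes were: Oprk1 (-0.92 ± 0.19, adjusted p = 0.00196), Oprm1 (-0.62 ± 0.18, adjusted p = 0.0169) and Pdyn (0.91 ± 0.32, adjusted p = 0.044). The ventral Pdyn call was lost with no filter (adjusted p = 0.11) and by median-ratio scaling (adjusted p = 0.0827). Penk, Oprd1 and Oprl1 were not called in either region, but by median-ratio scaling Penk (-0.47, adjusted p = 0.0425) and Oprd1 (-0.72, adjusted p = 0.021) were called lower in EM libraries in ventral striatum. Markers of cell types moved with the letters too. Of 4 D1 neuron markers, 1 was called higher in EM libraries in dorsal (median 0.50) and 2 in ventral striatum (0.62), with 0 lower, and 2 of 4 striatal projection neuron markers were called lower in EM libraries in either region. In ventral striatum 2 of 4 cortical glutamatergic and 3 of 4 tested GABA interneuron markers were called higher in EM libraries (medians 1.08 and 0.82), and in dorsal striatum 0 of 2 and 1 of 3. Their part in the calls of Oprk1, Oprm1 and Pdyn was not tested. For Oprk1 these sizes were above those between D1 and D2 libraries, though the difference between them was not tested. What the letters stand for is not stated, so they cannot be tied to a batch, date or operator.

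**Figure D4:**
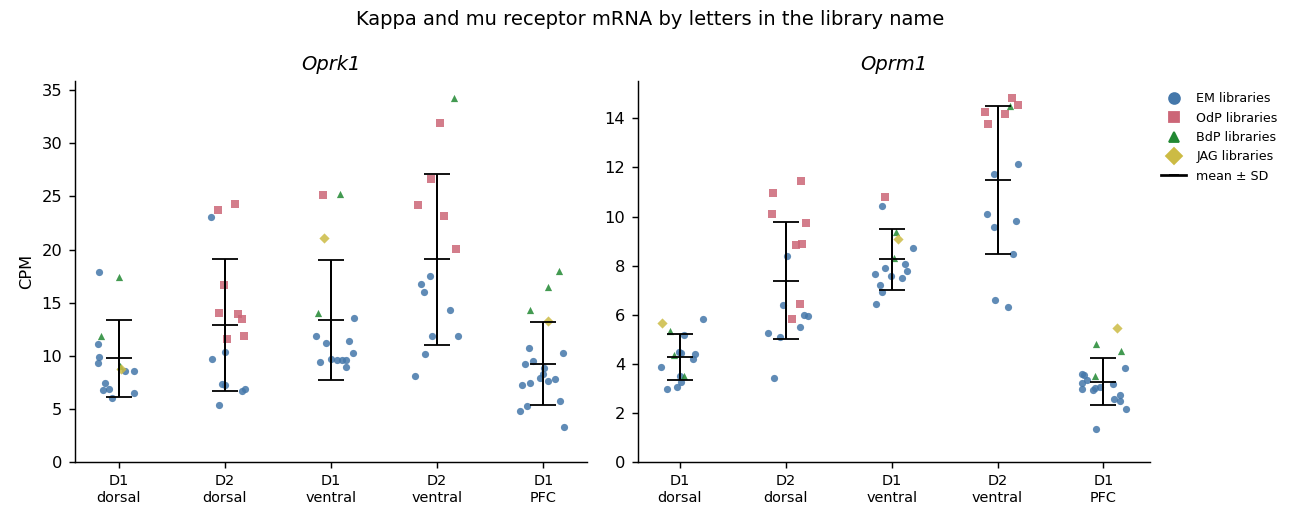
CPM of Oprk1 (left) and Oprm1 (right) in each library by group, with colour and symbol for the letters of the library name and black bars for the mean ± SD. In D2 ventral striatum the 6 libraries that are not EM lie above all 8 EM libraries for both genes, and for Oprk1 the same holds in D1 ventral striatum and prefrontal cortex.

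Genes of peptide processing (Pcsk1, Pcsk2, Cpe, Pcsk1n, Scg5, Pam and Ctsl), not all of which encode enzymes that cut the precursors, were examined next. Of 7 processing genes, 4 were higher and 0 lower in the dorsal region in D1 libraries (list median 0.62, all genes -0.12, with 34.6% of all genes called), and 6 were higher and 0 lower in D2 libraries (0.56, all genes -0.12, 28.5% called). In D1 libraries they were led by Cpe, the carboxypeptidase that trims the basic residues (243 ± 114 against 129 ± 39.5 CPM; 0.87 ± 0.17, adjusted p = 0.000122 by limma), and Pcsk2, the convertase that cuts at basic pairs (94.4 ± 12.96 against 57.1 ± 5.97 CPM; 0.72 ± 0.07, adjusted p = 5.01e-10). Between D1 and D2 libraries 0 were higher and 1 lower of 7 in dorsal striatum (25.9% of all genes called), and 2 higher and 1 lower of 6 in ventral striatum (47.7%). The level of the convertase gene Pcsk1 in prefrontal cortex did not overlap that of either D1 striatal group (3.91 ± 0.94 against 1.39 ± 0.62 and 1.06 ± 0.32 CPM); such separation was seen for 10.5% and 12.6% of genes. It passed the filter only through the cortical libraries, so its test was bound to find a difference.

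Among 7 genes of peptide degradation, 6 were tested between striatal regions, and 3 were higher in dorsal striatum in either class, with 1 lower in D1 (34.6% of all genes called) and 0 lower in D2 libraries (28.5% called). Between D1 and D2 libraries 1 was higher and 1 lower of 6 in dorsal striatum (25.9% called), and 0 were higher and 1 lower of 5 in ventral striatum (47.7% called). Ace, described below, is among the 3 higher in dorsal striatum. Mme, which encodes neprilysin, a peptidase that cleaves enkephalins, was 111.8 ± 27.8 CPM in D2 dorsal, 51.6 ± 16.3 in D2 ventral, 52.7 ± 19.4 in D1 dorsal, 18.5 ± 5.23 in D1 ventral striatum and 3.38 ± 2.32 in prefrontal cortex. It was thus higher in D2 than in D1 libraries in both regions (D1 minus D2 -1.12 ± 0.15, adjusted p = 2.49e-07, and -1.44 ± 0.14, adjusted p = 6.35e-10 by limma). The level of Ace, a peptidase that also cleaves enkephalins, was 8.57 ± 2.37 CPM in D1 and 4.44 ± 1.51 in D2 dorsal libraries against 0.709 ± 0.33 and 0.506 ± 0.32 in ventral ones. The regions did not overlap in either class, as for 2.65% of genes in D1 and 1.46% in D2 libraries. Ace passed the filter on low values only through the dorsal libraries, so its regional test was bound to find a difference.

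Of 17 genes that act downstream of the receptors, 7 were higher and 1 lower in D1 than in D2 libraries among 15 tested in dorsal striatum (median 0.22, all genes 0.02, 25.9% of all genes called), and 10 higher and 2 lower among 16 in ventral striatum (0.43, all genes 0.02, 47.7% called). In dorsal striatum the largest was Gnai1, an inhibitory G protein subunit (109.5 ± 37.0 against 38.1 ± 15.6 CPM; 1.54 ± 0.16, adjusted p = 1.05e-09 by limma). In ventral striatum the potassium channel subunit gene Kcnj9 was higher in D1 (1.05 ± 0.18, adjusted p = 1.46e-05) and the G protein subunit gene Gnao1 higher in D2 libraries (590.5 ± 74.3 against 1014 ± 169 CPM; -0.77 ± 0.09, adjusted p = 1.09e-08). Between dorsal and ventral striatum 4 were higher and 6 lower in either class (34.6% of all genes called in D1 and 28.5% in D2 libraries), with Rgs4, which shortens G protein signals, at 675 ± 178 against 259 ± 63.0 CPM in D1 libraries (1.37 ± 0.13, adjusted p = 1.87e-10). In prefrontal cortex 12 were higher and 2 lower than in D1 dorsal striatum among 16 (median 0.58, all genes 0.05, 54.8% of all genes called), and 11 higher and 3 lower than in D1 ventral striatum (62.8% called). The largest in size in both was Rgs9, a regulator of G protein signals that is also among the striatal projection neuron markers, at 5.34 ± 4.46 CPM in cortex against 93.3 ± 15.7 in D1 dorsal and 66.5 ± 7.69 in D1 ventral striatum (-4.28 ± 0.22, adjusted p = 3.55e-20, and -3.80 ± 0.21, adjusted p = 3.77e-19). The channel subunit gene Kcnj6 was at 14.8 ± 4.17 CPM in cortex against 2.28 ± 1.25 in D1 dorsal striatum, and it too passed the filter only through the cortical libraries.

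Other genes were ranked by how closely their 5 group means followed each member, as the root mean square difference of profiles of log2(CPM + 0.5), each centred on its mean, among 12362 genes. For Penk the nearest was Gpr6 (0.340), then Adora2a (0.444) and Ankk1 (0.835), against an amplitude of 2.66 of the Penk profile itself. For Pdyn they were Slc35d3 (0.662), Drd1a (0.664) and Isl1 (0.722), against 2.15, and for Oprd1 the kainate receptor gene Grik3 (0.347), Gm11837 (0.653) and Necab1 (0.744), against 1.54. Oprm1, Oprk1 and Oprl1, with flatter profiles, had closer neighbours. For Oprm1 (amplitude 0.604) they were Pik3r5 (0.065), Rfx3 (0.086) and Trps1 (0.095), and for Oprk1 (0.351) N4bp2l2 (0.020), Rimkla (0.034) and Cnot6l (0.036). For Oprl1 (0.411) they were Pycrl (0.025), Pnma1 (0.034) and Cenpt (0.077). For Pnoc (0.807) they were Serpini1 (0.038), 1110032F04Rik (0.053) and Tmem108 (0.053). Its group means spanned 65.7-fold in CPM, but the lowest, in D2 dorsal striatum, had 11 of 16 libraries at 0 reads, so that span is not exact. The small amplitude and the likeness of Pnoc rest on the pseudocount of 0.5 CPM, above its striatal means. With 5 groups as points, and more genes near a flat profile, these are descriptions of likeness only.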

How the data were processed

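The authors deposited 1 table of CPM (read counts of each gene divided by a library total) for 79 libraries, and all columns matched a sample by name. Per the submitters' processing notes, reads were trimmed with Trim Galore 0.4.2 and cutadapt 1.9.1, checked with FastQC and aligned with HISAT2 to GRCm38; the counter, annotation and filters are not given in the sources used here. The deposited CPM were whole multiples of 1 read in each library (100% whole within 0.01 reads), so reads could be recovered: 1 read was worth 0.0124 to 0.0466 CPM. Columns summed to 309566 to 401527 CPM, so the authors' scaling total exceeded the reads in genes, so that CPM carry each library's share of reads in genes. cDNA was amplified without molecular identifiers, so depth covers counting error only.

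Each comparison was fitted on the whole table with limma 3.58.1 in R 4.3.3 (lmFit, eBayes with a trend) on log2(CPM + 0.5), which understates changes of low genes, with only the compared groups. Genes needed at least 1 CPM in as many libraries as the smallest group. P-values were two-sided and adjusted by Benjamini-Hochberg over all genes tested. Pairs of group levels were compared with permutation tests of 100000 resamples. Alternatives were other pseudocounts, no filter, other scalings, edgeR 4.0.16 on recovered reads, EM libraries only, and name letters, number of males or share of reads in genes as terms. Settings that leave out named libraries, keep OdP libraries only or use sets of EM library names as a block were chosen after seeing the data. The fit was tested on simulated data for D1 against D2 in dorsal striatum, with 200 genes changed 2-fold: all 200 were recovered, with 14 false calls among 11162 genes when reads were drawn on the scaling total and 28 among 11174 when drawn on the reads in genes, whose share of the total differs between libraries. In the simulation only well-covered genes were changed, all genes had the same dispersion, and differences between library name letters were not included. Its outcome therefore does not extend to low genes, genes of wider spread or differences tied to the letters. Replicate numbers only name libraries. Named genes were the 7 members, up to 3 called genes per list and comparison, and the 3 nearest profiles per member. Exon lengths, coordinates and sequences came from GENCODE M21. The members and lists were chosen with earlier results of these data known.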

Additional observations from a re-analysis of the deposited data

Results flagged for a closer look

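The D1 minus D2 difference differed between dorsal and ventral striatum for 2 of the opioid genes, by the interaction contrast in limma. For Penk the difference of differences was -1.93 (adjusted p = 1.66e-11): D1 libraries were lower in dorsal striatum while D2 libraries were higher there. For Oprd1 it was -0.86 (adjusted p = 0.0497), a value at the threshold. The Oprd1 call was lost without D2 ventral replicate 2 (adjusted p = 0.0548) or D1 dorsal replicate 4 (adjusted p = 0.0735), libraries that stood apart by their marker sums. With more than 10 libraries in each group, no outlier test was run on single libraries.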

How the results depend on the processing

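The D1 against D2 calls of Penk, Pdyn and Oprd1 in both striatal regions held under all settings tried. Of 677 results of single members under an alternative, 623 kept direction and call, 43 lost the call, 2 gained it and 9 changed sign. With EM libraries only, 1389 genes rather than 2871 were called between D1 and D2 in dorsal striatum (1658 with name letters as a term), and members called fell to 3 in each D1 against D2 comparison and to 3 between regions in D1. With each library's genic share of reads as a term, 1218 genes rather than 5443 and 3 members were called between D1 and D2 in ventral striatum, and Oprk1 turned to 0.17; that share itself differed between these groups (medians 34.7% and 38.2%). Between regions in D1, median-ratio scaling and edgeR each left 3 members called and turned Oprd1 to 0.013 and 0.061, and leaving out D1 dorsal replicate 4 turned it to 0.021; in D2, OdP libraries alone gave 2074 genes rather than 3189. The interaction gave 480 genes rather than 313 with name letters as a term. It left 1 member called (Penk) with a pseudocount of 0.1, with no filter, with edgeR, with EM libraries only, with the number of males or the genic share as a term, without D2 ventral replicate 2 and without D1 dorsal replicate 4. Interaction values changed sign for Pdyn (0.26 with a pseudocount of 0.1, 0.017 by median-ratio scaling, 0.11 by edgeR, 0.19 without D2 dorsal replicates 1 and 2) and for Oprk1 (-0.10 with the share term), none of them called. Among named list genes Pcsk1n changed sign between D1 and D2 in ventral striatum with EM libraries only (-0.038). The share of calls that were higher in the first group moved from 49.6% to 59.7% (dorsal) and 50.5% to 66.1% (ventral) for D1 against D2 when scaled to reads in genes, from 29.2% to 51.2% (D1) and 27.8% to 49.6% (D2) for dorsal against ventral by median-ratio scaling, from 59.0% to 47.3% for prefrontal cortex against D1 dorsal striatum by edgeR, and from 73.2% to 61.6% for the interaction when scaled to reads in genes. edgeR on the recovered reads called 2966 and 5370 genes between D1 and D2 (dorsal, ventral), 3245 and 2682 between regions (D1, D2), 6591 and 7287 for prefrontal cortex against dorsal and ventral striatum, and 300 in the interaction. The causes were not tested. Depth limits Pnoc in striatum, at 0 to 48 reads per library. The labels do not say which libraries share mice, but EM libraries with consecutive numbers in their names and the same sexes form 11 sets in D1 and 8 in D2, used as a block after the data were seen. Consecutive numbers also occur among names with other letters, and those libraries were not put into sets. Deviations from the group means correlated within sets by 0.0426 to 0.446 between regions in D1 (9 of 11 sets over 0.1) and by -0.523 to 0.522 in D2 (5 of 8), and 11 of 22 and 4 of 16 libraries correlated best with their own set, so the names are a hint and not a shown pairing. With this block 3930 genes and 3 members were called between regions in D1 and 2212 genes and 5 members in D2, against 3565 genes and 3 members and 2238 genes and 4 members without it in the same libraries; in D2 Pdyn was called (-0.81, adjusted p = 0.0151 by limma), and Oprk1 was called in neither class (adjusted p = 0.0625 and 0.0975), with its level lower in dorsal striatum in 10 of 11 and 7 of 8 sets. In prefrontal cortex against dorsal and ventral striatum the block gave 5488 and 7227 genes.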
